A study of Rattus norvegicus with 8 samples.

Results

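The genes described here encode the major histocompatibility complex (MHC) of the rat, called RT1, and the proteins that load peptides on its molecules. Leaving aside control spots, the members were all probe sets with exactly 1 gene symbol in the platform annotation that began with RT1- or was B2m, Cd74, Ciita, Tap1, Tap2, Tapbp, Ifi30, Psmb8, Psmb9, Psmb10, Nlrc5 or Erap1. These were 48 of 31042 probe sets, and they covered 30 of the 14217 genes that have a set of their own. By role they were 20 sets of 12 class I heavy chain genes, 13 sets of 9 class I partner genes, 11 sets of 6 class II chain genes and 4 sets of the 3 class II partner genes.

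The livers were those of male Goto-Kakizaki rats, which develop type 2 diabetes without becoming obese, at an age of 18 weeks. All groups were of this strain. One group of 4 rats ate AIN-93G, a purified rodent diet, with persimmon peel extract for 12 weeks, and the control group of 4 ate AIN-93G alone for the same time. The dose of the extract is not given in the sources used here. Each liver was measured on 1 Affymetrix array, and the values are signals on a linear scale in arbitrary units.

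Class I molecules stand on nearly all nucleated cells and show peptides from inside the cell to CD8+ T cells. The immunoproteasome cuts these peptides, the TAP transporter moves them into the endoplasmic reticulum, and B2m completes the complex. Class II molecules stand mainly on dendritic cells, B cells and macrophages, take their peptides from lysosomes and show them to CD4+ T cells. In liver the class II-bearing cells include the resident macrophages, the Kupffer cells, whereas hepatocytes make up most of the tissue. Both pathways are induced by interferon gamma, and the coactivators Ciita and Nlrc5 act at class II and class I promoters, where a CCAAT-type element (the Y box) stands close to an X box.

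The promoters of 5 members are given. They belong to the gene that passed the test, a class II chain and the class I light chain. The other promoters are those of the neighbouring peptide transporter and immunoproteasome genes. The sequences are from RefSeq (rat build GRCr8, a reference strain other than Goto-Kakizaki) and run 5′ to 3′ on the gene's strand, from 250 bases before to 50 bases after the annotated start. They are Ifi30 at chr16:18709320-18709619 on the plus strand, RT1-Da at chr20:4515165-4515464 on the plus strand, B2m at chr3:129549080-129549379 on the plus strand, Tap1 at chr20:4668494-4668793 on the minus strand and Psmb9 at chr20:4668750-4669049 on the plus strand. Capitals mark matches, on either strand, to CCAAT, TTCNNNGAA (a core of sites for STAT factors), TTTCNNTTT (a core of interferon-response elements) or CCTAGCAAC (the start of an X-box sequence known from human class II genes).
Ifi30: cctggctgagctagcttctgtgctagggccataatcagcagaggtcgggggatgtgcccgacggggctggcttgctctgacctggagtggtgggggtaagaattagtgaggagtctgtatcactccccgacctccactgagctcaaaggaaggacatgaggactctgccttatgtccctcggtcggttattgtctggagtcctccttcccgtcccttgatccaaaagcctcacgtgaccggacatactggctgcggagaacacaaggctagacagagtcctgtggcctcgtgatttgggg
RT1-Da: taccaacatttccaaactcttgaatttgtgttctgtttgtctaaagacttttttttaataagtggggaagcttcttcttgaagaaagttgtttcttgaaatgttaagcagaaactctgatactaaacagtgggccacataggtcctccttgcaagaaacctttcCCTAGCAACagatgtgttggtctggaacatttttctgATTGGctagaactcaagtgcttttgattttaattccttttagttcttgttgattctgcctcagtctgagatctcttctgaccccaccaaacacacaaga
B2m: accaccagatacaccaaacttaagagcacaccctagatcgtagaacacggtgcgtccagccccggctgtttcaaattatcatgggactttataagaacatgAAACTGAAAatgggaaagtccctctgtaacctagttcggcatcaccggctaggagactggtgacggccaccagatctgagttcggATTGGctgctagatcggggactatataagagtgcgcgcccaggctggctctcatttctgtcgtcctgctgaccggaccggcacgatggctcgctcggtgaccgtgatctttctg
Tap1: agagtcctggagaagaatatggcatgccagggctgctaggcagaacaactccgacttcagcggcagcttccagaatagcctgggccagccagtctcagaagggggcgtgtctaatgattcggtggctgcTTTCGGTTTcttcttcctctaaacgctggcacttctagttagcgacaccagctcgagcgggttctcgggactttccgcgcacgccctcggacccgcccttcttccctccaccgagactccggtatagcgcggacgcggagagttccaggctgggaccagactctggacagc
Psmb9: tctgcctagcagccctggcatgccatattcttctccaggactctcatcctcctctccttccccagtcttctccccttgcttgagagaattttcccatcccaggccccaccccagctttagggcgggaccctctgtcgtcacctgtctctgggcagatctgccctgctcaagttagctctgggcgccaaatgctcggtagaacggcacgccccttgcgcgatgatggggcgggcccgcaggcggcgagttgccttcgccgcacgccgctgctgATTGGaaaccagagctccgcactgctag
Promoter sequences were found for 25 of the 30 member genes. CCAAT was present in 18 of these 25 windows and in 37.5% of all 33469 promoter windows of the same length. TTTCNNTTT was present in 10 of the 25 (B2m, Psmb10, Psmb8, RT1-M3-1, RT1-N3, RT1-S3, RT1-T24-3, Tap1, Tap2 and Tapbp) and in 11.8% of all windows. TTCNNNGAA was present in 2 of the 25 and in 8.87% of all, and CCTAGCAAC in RT1-Da alone among the members and in 0.807% of all. Tap1 and Psmb9 are transcribed in opposite directions, and their windows overlap by 44 bases. In the Ifi30 window none of the 4 motifs was present, which says only that these letters are not in this window. No 2 of the motifs overlapped in the windows shown.

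Over all probe sets the median signal per array was 33.2 to 39.2. A probe set was tested if its mean signal lay in the upper 50% of all sets, which was the case for 15521 sets whose mean signal was 34.4 or more. The highest value among the 27 control sets for Bacillus genes, called bacterial controls below, was 14.5. Control sets of other kinds were not part of this value. Between any 2 arrays the correlation over probe sets was 0.967 to 0.986. Persimmon peel array 3 had the highest median (39.2). Signals for parts of one control transcript, whose ratio falls when RNA is degraded, were compared too. For beta-actin, middle over 3′ on the log2 scale averaged -1.06 ± 0.11 on the persimmon peel diet and -0.76 ± 0.02 on the control diet (SD, n = 4 each). All 4 persimmon peel livers were lower (exact two-sided permutation p = 0.0286, the smallest possible, and 0.0571 after adjustment for 4 ratios). The 5′ over 3′ ratio of beta-actin gave -1.97 ± 0.22 on the persimmon peel diet and -1.68 ± 0.12 on the control diet, with the same exact p values. For GAPDH, middle over 3′ averaged -0.59 on the persimmon peel diet and -0.58 on the control diet (exact permutation p = 0.857). GAPDH 5′ over 3′ averaged -0.43 on the persimmon peel diet and -0.29 on the control diet (adjusted exact permutation p = 0.114). None of the 4 ratios had an adjusted p under 0.05.

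Of the 48 member sets, 36 sets of 29 genes were tested. The other 12 had signals between 0.336 and 46.1 in any liver, and 3 of them stayed at or below the bacterial controls in all 8 livers. The 12 were 1 set of RT1-A3, 3 of RT1-CE5, 1 of Erap1, 1 of Tap1, 2 of RT1-Ba, both sets of RT1-Bb, 1 of RT1-Db1 and 1 of Ciita. RT1-Bb, the beta chain of the RT1-B class II molecule, was thus the member gene left without a test. Among the dim sets, the Erap1 set 1387149_at had signals of 16.5, 16.8, 13.8 and 17.0 on the persimmon peel diet and 21.9, 25.6, 24.6 and 23.8 on the control diet. Its diets did not overlap, and with no filter its adjusted p was 0.382. The share of untested sets over the array without overlap was not counted.

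Of the 36 tested sets, Ifi30 was higher on the persimmon peel diet and none was lower (limma, Benjamini-Hochberg adjusted p under 0.05 over all 15521 sets). Over the whole array 4.95% of sets passed, 0.425% as higher and 4.53% as lower. With both directions pooled, 1 call among 36 (2.78%) is near that background. A single call is too few to compare the directions. At an unadjusted p under 0.05, 4 members were higher and 1 was lower, where the whole array had 6.19% higher and 13.4% lower (19.6% in all). The diets did not overlap in 4 of 36 members (Ifi30, RT1-Db1 and Psmb10 higher, Erap1 lower), against 12.9% of all tested sets (2.87% higher, 10.0% lower). Log2 fold changes (persimmon peel minus control) were positive in 27 of 36 member sets and in 48.6% of all tested sets, with medians of 0.11 and -0.0071. Without persimmon peel array 3 they were positive in 19 of 36, with medians of 0.03 for the members and -0.06 for all sets.

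**Figure D1:**
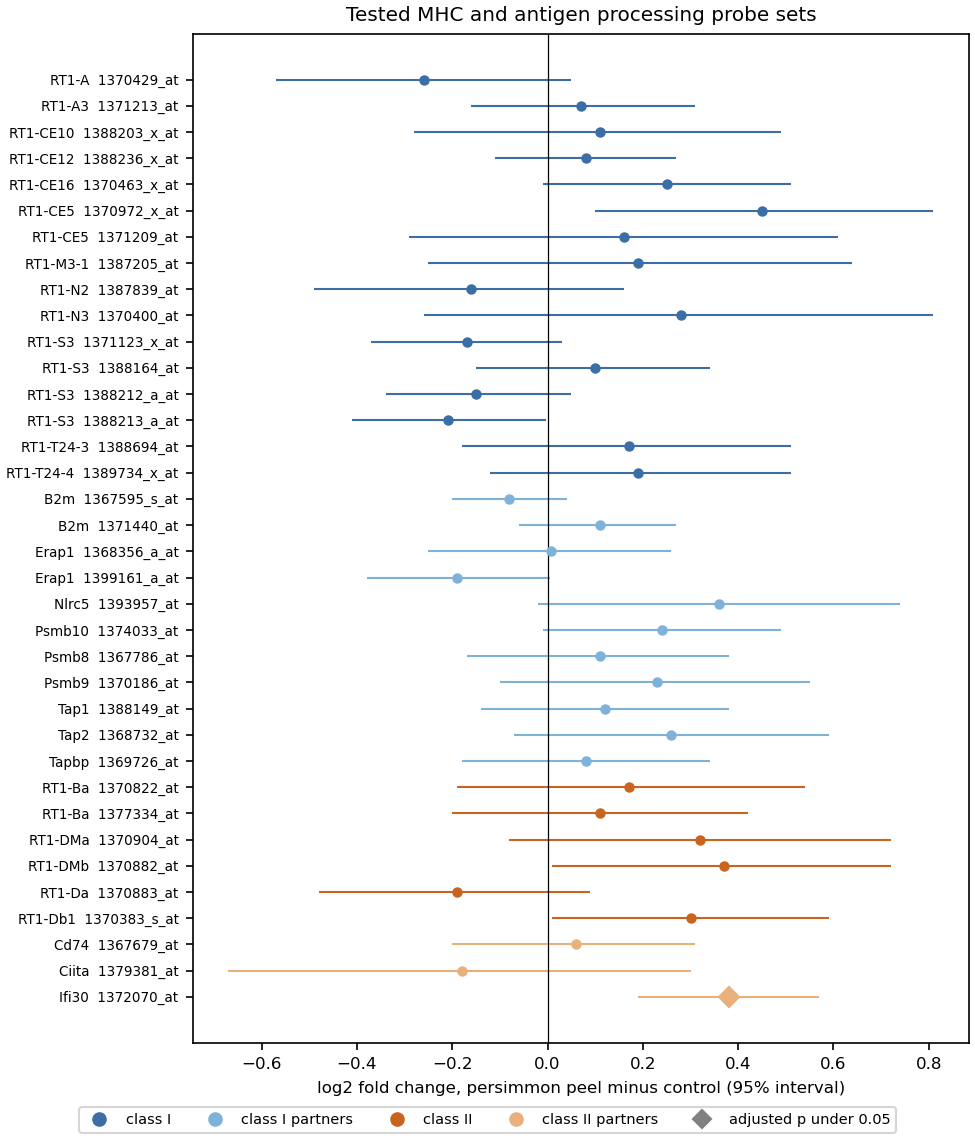
Log2 fold change (persimmon peel minus control, limma) with its 95% interval for each of the 36 tested probe sets, coloured by class, with 1 row per probe set. Ifi30, the diamond at 0.38, is the only set with an adjusted p under 0.05, and the intervals of the other 35 lie between -0.67 and 0.81.

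Among the class II partners, Ifi30 encodes the lysosomal thiol reductase that opens disulphide bonds of proteins before their peptides bind class II. Its signal was 798, 817, 947 and 790 in persimmon peel livers 1 to 4 and 603, 671, 635 and 656 in control livers 1 to 4. Every persimmon peel liver exceeded every control liver. The means were 838 ± 73.7 on the persimmon peel diet and 641 ± 29.4 on the control diet (SD, n = 4 each), a 1.3-fold difference (95% interval 1.14 to 1.49). The log2 fold change was 0.38 (SE 0.09, limma adjusted p = 0.0255). Ifi30 had 1 probe set, and the array gives no second reading of the transcript.

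The Ifi30 difference kept its direction in all 19 other settings, with log2 fold changes of 0.32 to 0.43, and passed the threshold in 11 of them. Without persimmon peel array 3 it was 0.32 (adjusted p = 0.0442). The call ended without persimmon peel array 1 (adjusted p = 0.0546), control array 1 (0.0871), control array 3 (0.0619) or control array 4 (0.0637). With the beta-actin ratio as a covariate the log2 fold change was 0.35 and the adjusted p was 1, in a fit that called no probe set on the array and whose covariate did not overlap between the diets.

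Cd74, the invariant chain that blocks the class II groove until the lysosome, had signals of 745, 739, 1066 and 817 on the persimmon peel diet and 756, 920, 781 and 750 on the control diet. The diets overlapped, and the high value belonged to persimmon peel liver 3 (log2 fold change 0.06, SE 0.12, adjusted p = 0.831). Ciita, the class II transactivator, had signals of 25.2, 39.1, 45.8 and 25.9 on the persimmon peel diet and 41.6, 35.5, 35.8 and 36.7 on the control diet. Persimmon peel livers held both the lowest and the highest Ciita values (log2 fold change -0.18, SE 0.23, adjusted p = 0.704). The Ciita signals lie at the lower limit of the tested range.

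Of the class II chains, 0 of 6 tested sets passed, 5 had a positive log2 fold change and the median was 0.24, against -0.0071 over all tested sets. Without persimmon peel array 3 the median was 0.15, with 4 positive and 2 negative, against -0.06 over all tested sets. RT1-DMb is a chain of the DM molecule, which exchanges peptides on class II. Its signal was 168, 215, 193 and 136 on the persimmon peel diet and 135, 181, 113 and 124 on the control diet. Every persimmon peel liver was above 3 of the 4 control livers, and control liver 2 was above persimmon peel livers 1 and 4 (log2 fold change 0.37, SE 0.17, adjusted p = 0.234). RT1-DMa, the partner chain of DM, had 71.3, 53.8, 59.0 and 40.0 on the persimmon peel diet and 42.9 to 45.2 on the control diet. Persimmon peel livers 1 to 3 were above and liver 4 was below all control livers (log2 fold change 0.32, SE 0.19, adjusted p = 0.371).

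RT1-Db1 and RT1-Da encode the beta and alpha chains of the RT1-D molecule. RT1-Db1 (set 1370383_s_at) had signals of 134, 151, 194 and 138 on the persimmon peel diet and 128, 110, 131 and 127 on the control diet. The diets did not overlap, and the difference did not pass (log2 fold change 0.30, SE 0.14, adjusted p = 0.233). RT1-Da, with the X-box and CCAAT matches shown above, had 373, 451, 619 and 408 on the persimmon peel diet and 543, 513, 510 and 511 on the control diet. The control livers were close together, while persimmon peel livers lay on both sides of them (log2 fold change -0.19, SE 0.13, adjusted p = 0.451). The tested sets of these chains thus had log2 fold changes of opposite sign, and neither passed. The RT1-Db1 set is of a type (s_at) that can bind several transcripts. The dim RT1-Db1 set 1370382_at was at -0.12 with no filter (adjusted p = 0.939).

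RT1-Ba, the alpha chain of the RT1-B molecule, was read by 2 tested sets. The brighter, 1377334_at, had 442, 470, 695 and 445 on the persimmon peel diet and 523, 500, 470 and 388 on the control diet (log2 fold change 0.11, SE 0.14, adjusted p = 0.726). The dimmer, 1370822_at, had 56.9, 83.7, 77.8 and 59.3 on the persimmon peel diet and 56.2, 52.9, 67.6 and 67.5 on the control diet (log2 fold change 0.17, SE 0.17, adjusted p = 0.61). Both overlapped between diets. Persimmon peel liver 3 was the highest in the brighter set and liver 2 in the dimmer.

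**Figure D2:**
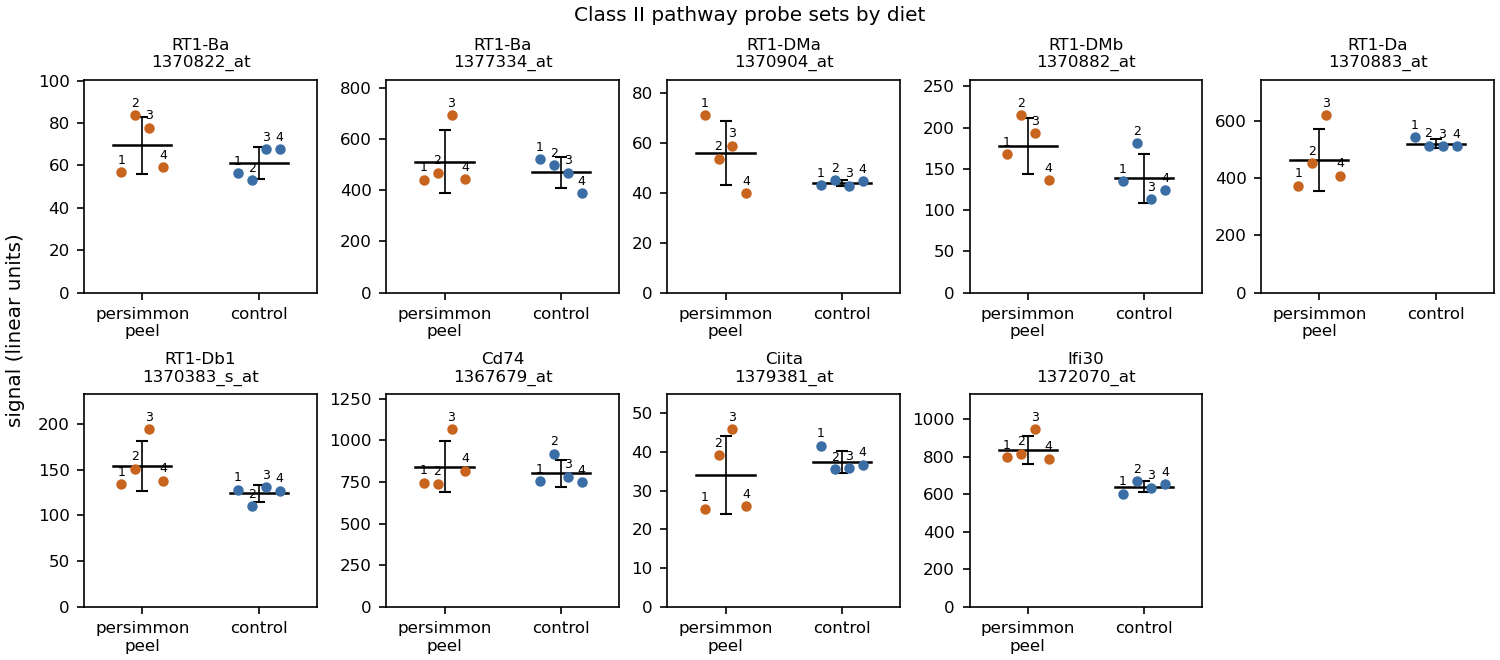
Signal (linear units) of the 9 tested class II and class II partner probe sets in each liver, numbered by replicate, with persimmon peel on the left and control on the right, and with the mean and SD of each diet (n = 4). Ifi30 and RT1-Db1 do not overlap between the diets, and persimmon peel liver 3 is the highest point in 6 of the 9 panels.

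Of the class I heavy chains, 0 of 16 tested sets passed. Log2 fold changes were positive in 11 and negative in 5, from -0.26 to 0.45 with a median of 0.10. Without persimmon peel array 3, 8 were positive and 8 negative and the median was -0.00046, against -0.06 over all tested sets. RT1 class I genes are near copies of each other, and 6 of the 16 tested sets are of the types (x_at or s_at) that can bind several transcripts. A value therefore belongs to the probe set and may include related heavy chains.

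The class I set with the largest difference was 1370972_x_at of RT1-CE5. Its signal was 169, 157, 213 and 149 on the persimmon peel diet and 92.4, 114, 156 and 144 on the control diet, with control livers 1 and 2 low. The log2 fold change was 0.45 (SE 0.17, adjusted p = 0.142), the smallest adjusted p among the 35 members not called. The other tested RT1-CE5 set, 1371209_at, was at 0.16 (SE 0.21, adjusted p = 0.712). RT1-CE16 had 768, 701, 1025 and 699 on the persimmon peel diet and 594, 655, 727 and 686 on the control diet. The diets overlapped through control liver 3 (log2 fold change 0.25, SE 0.12, adjusted p = 0.278).

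RT1-CE12 had 1975, 1957, 2378 and 1931 on the persimmon peel diet and 2042, 2133, 1725 and 1892 on the control diet (log2 fold change 0.08, SE 0.09, adjusted p = 0.671). RT1-A, the classical class I locus of the rat, had 83.4, 111, 94.6 and 73.4 on the persimmon peel diet and 104, 113, 99.8 and 113 on the control diet. Persimmon peel livers 1, 3 and 4 were below every control liver and liver 2 was among them (log2 fold change -0.26, SE 0.14, adjusted p = 0.337). RT1-N3, with signals between 21.1 and 52.4, was at 0.28 on the log2 scale (SE 0.25, adjusted p = 0.579). The dimmer tested RT1-CE5 set and those of RT1-A3, RT1-CE10, RT1-M3-1, RT1-N2, RT1-T24-3 and RT1-T24-4, 7 in all, ranged from -0.16 to 0.19 with adjusted p between 0.502 and 0.781.

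RT1-S3, a non-classical class I gene, was read by 4 bright sets whose signs differed. Set 1388164_at had 1593, 1471, 2122 and 1603 on the persimmon peel diet and 1325, 1671, 1617 and 1707 on the control diet (log2 fold change 0.10, SE 0.11, adjusted p = 0.687). Set 1388212_a_at had 1594, 1639, 1827 and 1834 on the persimmon peel diet and 1610, 2029, 2014 and 2014 on the control diet (log2 fold change -0.15, SE 0.09, adjusted p = 0.389). In this second set control livers 2 to 4 lay above all persimmon peel livers, and control liver 1 did not. The sets 1371123_x_at and 1388213_a_at were at -0.17 (adjusted p = 0.347) and -0.21 (adjusted p = 0.247). The log2 difference of 1388164_at minus 1388212_a_at was -0.00063, -0.16, 0.22 and -0.19 on the persimmon peel diet and -0.28, -0.28, -0.32 and -0.24 on the control diet. These values did not overlap, and the diet difference of 0.25 did not pass (SE 0.12, adjusted p = 0.214). It was 0.10 without persimmon peel arrays 1 and 3 and -0.02 with the beta-actin ratio as a covariate.

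That test compared, in limma over 2981 pairs on the array, each further set of a gene with its brightest set, and 13.2% of all pairs passed. Of 7 pairs in 5 member genes, 0 passed. The diets did not overlap in 2 of the 7, the RT1-S3 pair above and the B2m pair, and in 20.2% of all pairs. B2m is the light chain shared by all class I molecules. Its set 1371440_at had 3939, 3578, 4372 and 3904 on the persimmon peel diet and 3288, 3775, 3840 and 3744 on the control diet (log2 fold change 0.11, SE 0.08, adjusted p = 0.471). Its brighter set 1367595_s_at had 9934, 9398, 10474 and 10139 on the persimmon peel diet and 10044, 10860, 10394 and 11007 on the control diet (log2 fold change -0.08, SE 0.06, adjusted p = 0.448). The log2 difference between the sets was -1.33, -1.39, -1.26 and -1.38 on the persimmon peel diet and -1.61, -1.52, -1.44 and -1.56 on the control diet (diet difference 0.19, SE 0.11, adjusted p = 0.263). With the beta-actin ratio as a covariate the B2m difference was 0.12 (adjusted p = 0.99).

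**Figure D3:**
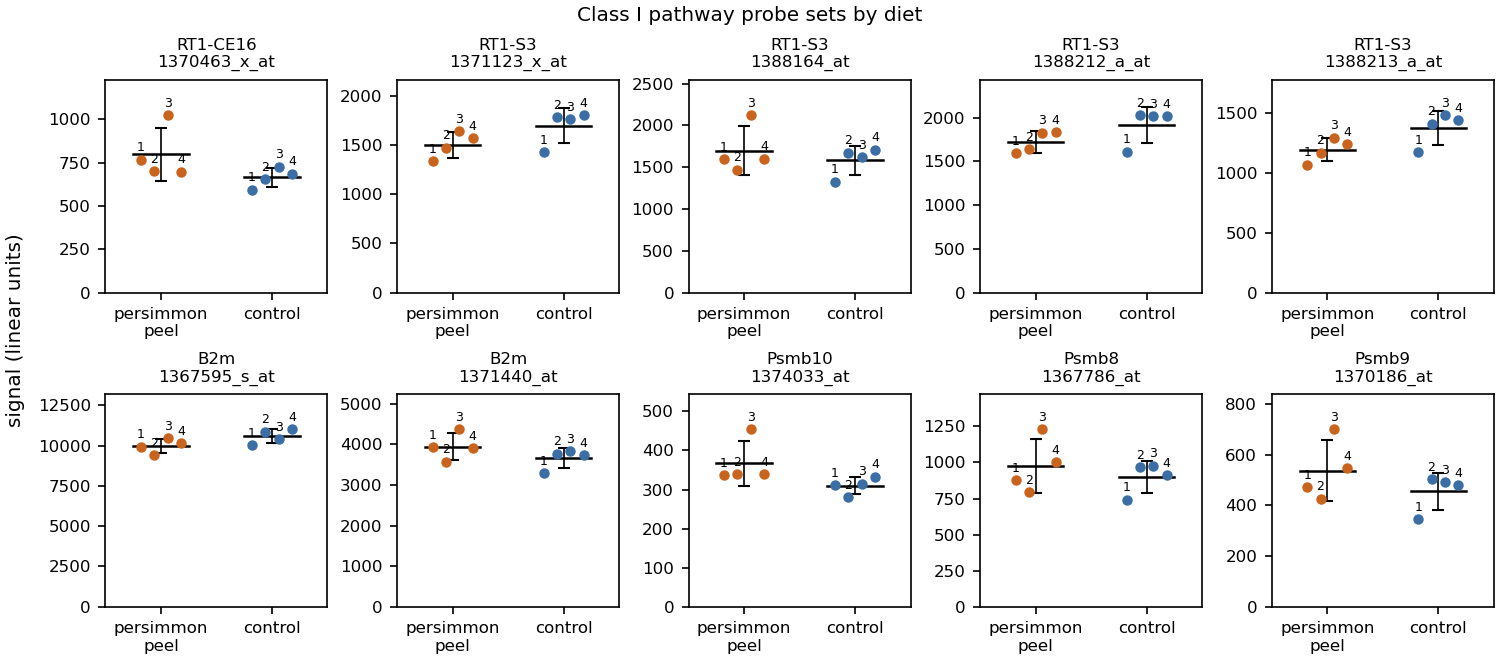
Signal (linear units) of 10 class I and class I partner probe sets in each liver, numbered by replicate, with persimmon peel on the left and control on the right, and with the mean and SD of each diet (n = 4). None of the 10 passed the test, control liver 1 is the lowest point in 5 panels and persimmon peel liver 3 the highest in 6.

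Of the class I partners, 0 of 11 tested sets passed, 9 had a positive log2 fold change and the median was 0.11. Without persimmon peel array 3, 6 were positive and 5 negative, and the median was 0.06, against -0.06 over all tested sets. Among the immunoproteasome subunits, which replace the standard catalytic subunits, Psmb10 had 336, 340, 454 and 340 on the persimmon peel diet and 311, 280, 315 and 333 on the control diet. The diets did not overlap, by a margin of a few units, and the difference did not pass (log2 fold change 0.24, SE 0.12, adjusted p = 0.279). Psmb9 had 472, 426, 700 and 547 on the persimmon peel diet and 346, 504, 492 and 481 on the control diet (log2 fold change 0.23, SE 0.15, adjusted p = 0.447). Psmb8 had 876, 796, 1229 and 1003 on the persimmon peel diet and 743, 965, 977 and 911 on the control diet (log2 fold change 0.11, SE 0.13, adjusted p = 0.689). For Psmb8 and Psmb9 alike, persimmon peel liver 3 was the highest of 8 and control liver 1 the lowest.

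Nlrc5, the class I transactivator, had 61.1, 46.6, 62.5 and 54.2 on the persimmon peel diet and 36.4, 50.1, 39.2 and 49.6 on the control diet (log2 fold change 0.36, SE 0.18, adjusted p = 0.285). Tap2, a subunit of the peptide transporter, had 91.3, 88.8, 113 and 69.5 on the persimmon peel diet and 79.5, 69.1, 78.8 and 71.7 on the control diet (log2 fold change 0.26, SE 0.16, adjusted p = 0.381). In both genes 3 persimmon peel livers were above all control livers. Tap1, the other subunit of the transporter, and Tapbp, which bridges it to class I, had log2 fold changes of 0.12 and 0.08 (adjusted p = 0.632 and 0.759).

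Erap1, which trims peptides in the endoplasmic reticulum, had 1 tested set with no overlap. Set 1399161_a_at had 513, 536, 542 and 526 on the persimmon peel diet and 589, 585, 566 and 670 on the control diet (log2 fold change -0.19, SE 0.09, adjusted p = 0.27). Set 1368356_a_at had 868, 694, 1042 and 856 on the persimmon peel diet and 773, 818, 838 and 995 on the control diet (log2 fold change 0.0066, SE 0.12, adjusted p = 0.984). The difference between these sets overlapped between the diets and did not pass (1399161_a_at minus 1368356_a_at, -0.19, SE 0.14, adjusted p = 0.382), and it was -0.03 without persimmon peel arrays 1 and 3. The dim Erap1 set given above lay near the highest bacterial control value (14.5) on the persimmon peel diet, at 13.8 to 17. On the control diet it lay above that value, at 21.9 to 25.6.

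Persimmon peel liver 3 was the highest of the 8 livers in 24 of 36 member sets and in 38.3% of all tested sets. After each array was centred on its median, it was the highest in 16 of 36 members and in 16.9% of all tested sets. Control liver 1 was the lowest in 13 of 36 members and in 14.9% of all sets. As a mean over the 6 class II sets, each centred on its own mean, the log2 value was -0.01, 0.16, 0.37 and -0.16 in persimmon peel livers 1 to 4 and between -0.12 and -0.06 in the control livers. Over the 16 class I sets it was -0.05, -0.05, 0.25 and -0.0075 in the persimmon peel livers and -0.23, -0.02, 0.03 and 0.08 in the control livers. On this deposited scale persimmon peel liver 3 lies at the top of both classes. With arrays centred on their medians, the class I mean was 0.11 in that liver, 0.09 in persimmon peel liver 4 and 0.10 in control liver 3. The SD of the class II mean was 0.23 on the persimmon peel diet and 0.03 on the control diet as deposited, but 0.13 on the persimmon peel diet and 0.10 on the control diet after the arrays were centred on their medians. After centring, the class II mean was 0.0036, 0.15, 0.23 and -0.06 in the persimmon peel livers and 0.02, -0.11, -0.03 and -0.20 in the control livers, and the diets overlapped.

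**Figure D4:**
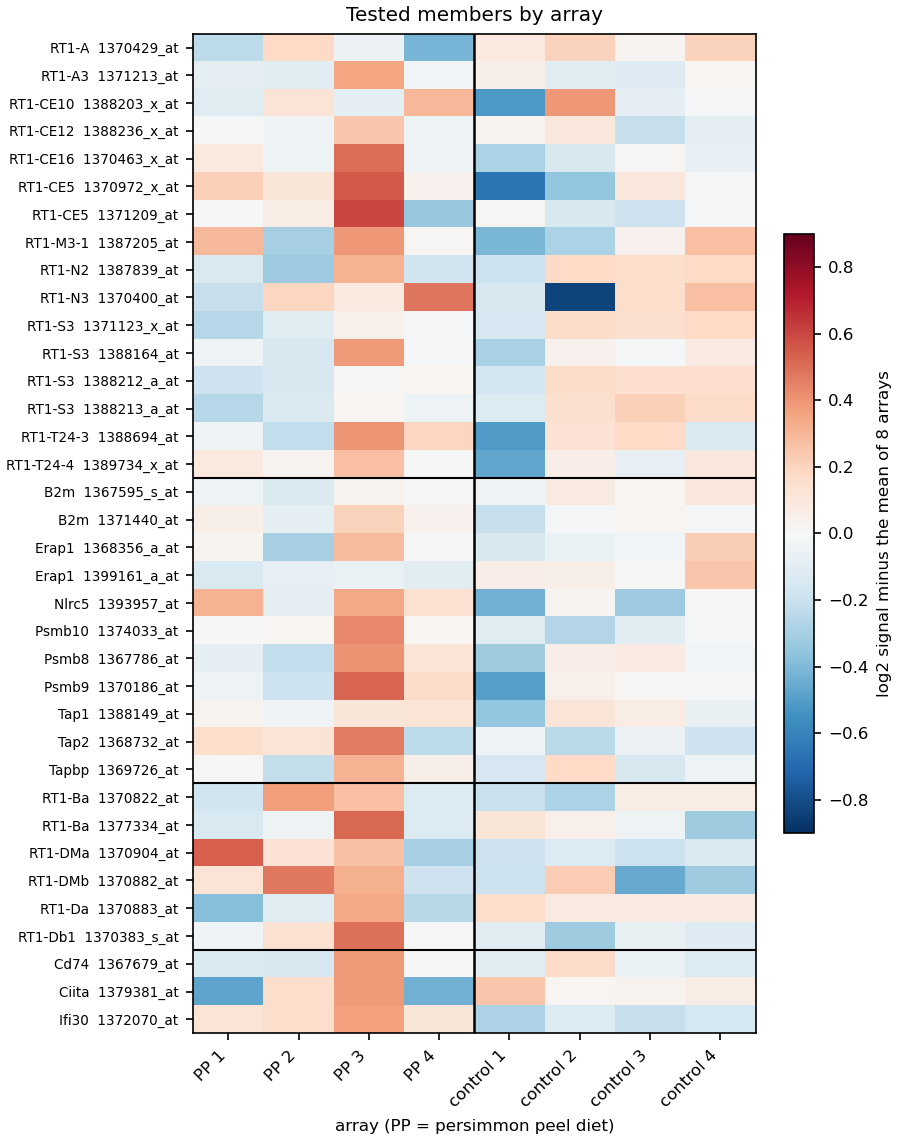
Log2 signal of the 36 tested members in each array minus the probe set's mean over 8 arrays (colour scale), with the 4 persimmon peel arrays left of the 4 control arrays and lines between the classes. Persimmon peel array 3 is the highest array in 24 rows, and control array 1 the lowest in 13.

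Markers of the cells that carry class II were compared in the same livers, each gene being read by its brightest set. Of 12 Kupffer cell and macrophage markers 9 were on the array and tested, 0 passed, and persimmon peel liver 3 was the highest of the 8 livers for all 9. These are deposited signals, and that liver was the highest in 38.3% of all tested sets (16.9% after centring on array medians). The summed signal of the 9 markers was 6593, 5971, 9696 and 6026 in persimmon peel livers 1 to 4 and 5325 to 6867 in control livers. Among them Clec4f, a Kupffer cell lectin, had 2590 and the complement gene C1qa had 2839 in persimmon peel liver 3, against at most 1966 and 1869 in any other liver. In bulk liver, more cells of a type and more RNA per cell cannot be told apart. The part of these markers in the member values of that liver was not tested.

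None of 4 dendritic cell markers (Itgax, Batf3, Clec9a and Flt3) and none of 3 B cell markers (Ms4a1, Blk and Cd79b) reached the tested range in their brightest set, with at most 34.2 and 19.3 units in any liver. Their sums were 20.6 to 65.7 on the persimmon peel diet and 50.2 to 69.8 on the control diet for dendritic cells, and 22.4 to 37.1 on the persimmon peel diet and 15.2 to 28.7 on the control diet for B cells. Of 11 T and NK cell markers 2 were tested, Prf1 (0.35, adjusted p = 0.365) and Cd4 (-0.20, adjusted p = 0.552), with sums of 294 to 426 on the persimmon peel and 259 to 345 on the control diet. Of 5 general leukocyte markers 4 were tested and 0 passed, with sums of 518 to 720 on the persimmon peel diet and 578 to 658 on the control diet, among them Ptprc at -0.27 (adjusted p = 0.268), Cd53 at -0.24 (adjusted p = 0.368) and, with the opposite sign, Coro1a at 0.49 (adjusted p = 0.138). Persimmon peel liver 3 also had the highest T and NK cell sum (426) and the highest leukocyte sum (720). Its dendritic cell sum (65.7) was below the control maximum of 69.8. Its B cell sum (29.8) was below the persimmon peel maximum of 37.1. These sums are of deposited signals without centring, and that array had the highest median signal (39.2). None of these lists, the Kupffer cell list included, had a called gene.

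The liver label was checked on hepatocyte markers, and all 11 on the array were in the tested range, with Alb, the albumin gene, averaging 8928 on the persimmon peel and 9643 on the control diet. Their summed signal was 93599 to 100498 on the persimmon peel diet and 101222 to 108556 on the control diet, without overlap. The brightest genes weigh most in this sum, and no share of such sums over the array was computed. In their brightest set 0 of 11 passed, with 10 negative and 1 positive. Among them were Serpina1 at -0.08 and Apoa2 at -0.11 (adjusted p = 0.416 and 0.269). The positive 1 was Hnf4a at 0.23 (SE 0.08, adjusted p = 0.127). A dimmer set of the urea cycle gene Cps1 was lower (-0.55, SE 0.08, adjusted p = 0.00224). Of 5 tested endothelial markers 1 was lower, where 4.53% of all tested sets were lower. This was Fcgr2b, an inhibitory Fc receptor of sinusoidal endothelium. Its signal was 803, 855, 908 and 823 on the persimmon peel diet and 1071, 1152, 1164 and 1130 on the control diet (log2 difference -0.42, SE 0.08, adjusted p = 0.009). The endothelial sums were 3659 to 4601 on the persimmon peel and 4491 to 4751 on the control diet, with Lyve1 at -0.24 (adjusted p = 0.113) and Kdr at -0.10 (adjusted p = 0.597). The remaining endothelial markers were Stab2 at -0.05 and Pecam1 at 0.27 (adjusted p = 0.885 and 0.448), which makes 4 negative and 1 positive.

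The interferon gamma axis was read by 13 tested genes, of which 0 were higher and 1 was lower, where 4.53% of all tested sets were lower. Log2 fold changes were positive in 8 and negative in 5. The lower gene was Cxcl9, a chemokine induced by this cytokine, with 91.4, 88.7, 111 and 87.8 on the persimmon peel diet and 140, 127, 158 and 151 on the control diet. The diets did not overlap (log2 fold change -0.61, SE 0.13, adjusted p = 0.0147). Among all tested sets they did not overlap in 10.0% in the lower and 2.87% in the higher direction. Jak1, a kinase of the receptor, was at -0.12 in its brightest set (adjusted p = 0.414) and lower in a dimmer one (-0.81, SE 0.13, adjusted p = 0.00372). Cxcl11 was at -0.06 (adjusted p = 0.756), and the dimmer set of the GTPase gene Igtp was lower (-0.64, SE 0.17, adjusted p = 0.0477) while its brightest set was at 0.14 (adjusted p = 0.53). Among the positive values, Icam1 was at 0.26 with no overlap between diets (adjusted p = 0.21), Irf1 at 0.28 (adjusted p = 0.329) and Gbp2 at 0.27 (adjusted p = 0.558). The remaining negative values were Jak2 at -0.71 (SE 0.33, adjusted p = 0.249) and Cxcl10 at -0.34 (SE 0.17, adjusted p = 0.291). The median over the 13 genes was 0.06, and Ifng itself was below the tested range.

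For the class I pathway outside the members, 1 of 12 tested genes was lower and 0 were higher, with a median of -0.02. Over the whole array 4.53% of tested sets were lower, so 1 call among 12 is near that background. Uggt1, the folding sensor that returns glycoproteins to the calnexin cycle, had 106, 121, 72.2 and 89.0 on the persimmon peel diet and 143, 138, 144 and 204 on the control diet (log2 fold change -0.70, SE 0.17, adjusted p = 0.0291). Its diets did not overlap, as in 10.0% of all tested sets in the lower direction. The chaperones Hspa5 and Calr were at 0.05 and 0.11 (adjusted p = 0.792 and 0.472). A dimmer set of the chaperone gene Canx was lower (-0.74, SE 0.12, adjusted p = 0.0046) and its brightest set was at -0.07. Dimmer sets of listed genes (Cps1, Jak1, Igtp and Canx) were named only because they passed. The dimmer sets that did not pass were not counted, so no share can be given. For the class II pathway outside the members, cathepsins and promoter factors such as Rfx5, 0 of 15 tested genes passed and the median was 0.02. The lysosomal proteases Ctsh and Ctsb were at -0.03 and -0.06 (adjusted p = 0.877 and 0.633).

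**Figure D5:**
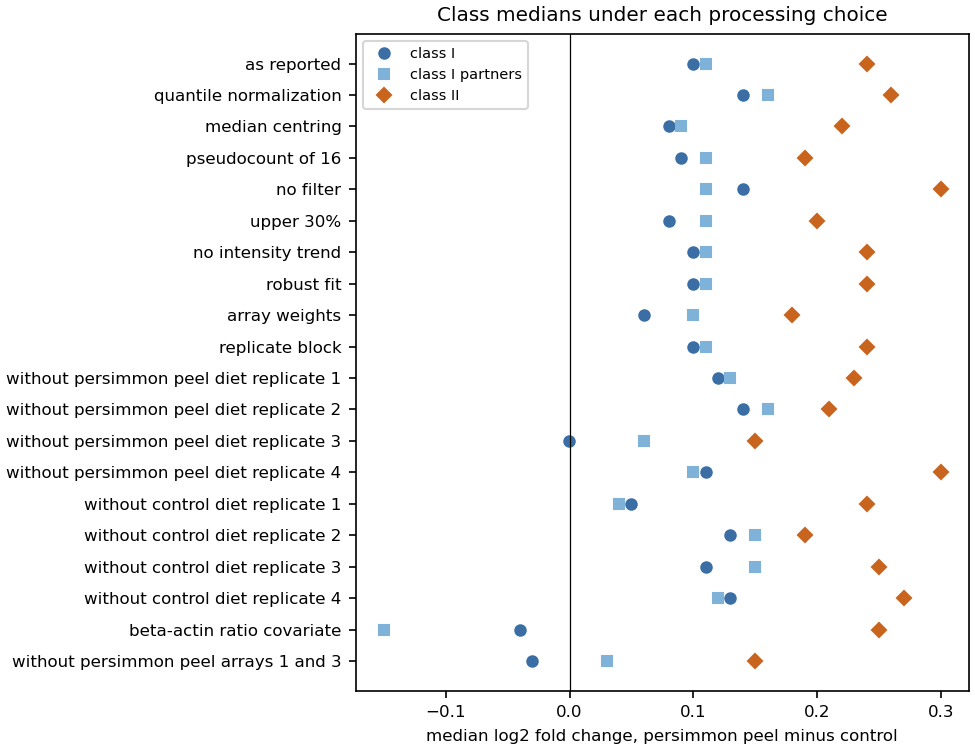
Median log2 fold change (persimmon peel minus control) of the class I, class I partner and class II probe sets under each processing choice and with arrays left out, 1 row per choice. The class II median stays between 0.15 and 0.30, whereas the class I median lies at -0.00046 without persimmon peel replicate 3 and at -0.04 with the beta-actin ratio as a covariate. In these settings the median over all tested sets, not plotted, was -0.06 and -0.11.

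The class II median was the largest of the 3 medians plotted, and no test compared the classes. With the beta-actin ratio as a covariate, the log2 fold change was positive in 4 of 6 class II, 6 of 16 class I and 3 of 11 class I partner sets, where the median over all tested sets was -0.11. For the 35 members not called, the 95% intervals together spanned folds of 0.63 to 1.76. In simulated data with the spread of these arrays, the fit found 2 of 50 sets with a 1.25-fold change and 26 of 50 with a 1.5-fold change. Differences of the size seen in most members were thus mostly not found in that simulation with 4 arrays per diet. It changed 50 sets at each fold of 1.25, 1.5, 2 and 3, whereas 769 sets were called in the real data. Fewer changed sets make the adjusted threshold stricter, so these counts may understate what the fit could find.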

How the data were processed

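Liver RNA of 8 rats was isolated with ISOGEN, cleaned on RNeasy columns and turned into biotinylated cRNA, per the labels' protocols. The authors deposited 1 linear intensity per probe set and array, made with MAS5 per the submitters' processing notes. Its scaling target and any detection calls were not used here. Precision is limited by the number of arrays.

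Values were taken as log2 without a pseudocount. The 57 control sets and the dimmest 50% of the others by mean log2 value over 8 arrays were left out. Diets were compared over the whole table with limma 3.58.1 in R 4.3.3 (lmFit, eBayes with intensity trend, two-sided, Benjamini-Hochberg over 15521 sets, threshold 0.05). Adjusted p, SE and intervals come from this fit, and means and SDs are of linear signals. Differences between sets of a gene were fitted without the trend, a test added after seeing the data. Control ratios had an exact permutation test. Also tried were median centring, quantile normalization, a robust fit, a pseudocount of 16, no filter, the upper 30%, no trend, array weights, a replicate block, arrays left out, the unadjusted p and the beta-actin ratio as covariate. The members, lists and tests were chosen with earlier results of these data known. The naming rule was every called member, and per class the 5 brightest and 4 most changed tested sets, and per other list the called genes and the 2 brightest. Named outside it, after their values were seen, were the dim member sets, RT1-CE5 set 1371209_at, Tap1, Tapbp, Alb, Hnf4a, the brightest sets of Canx and Igtp, Coro1a, Stab2, Pecam1, Icam1, Irf1, Gbp2, Jak2, Cxcl10, Rfx5, Ifng and the dendritic and B cell markers. The motifs were chosen with the sequences in view. Symbols were updated through a RefSeq table (GRCr8), used for names only. Each array was treated as 1 animal. The fit was tested on simulated data.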

Additional observations from a re-analysis of the deposited data

Results flagged for a closer look

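Of 88 sets of 4 values checked (each tested member and control ratio, and the class means, within each diet), 11 had 1 array far from the other 3, by a gap to the nearest value, as a share of the range, above Dixon's critical value for 4 samples. Chance gives about 1 in 20 such sets, and the member sets share arrays. In persimmon peel array 3, high values were found for RT1-A3 (0.846), Psmb10 (0.966), RT1-Ba set 1377334_at (0.864), RT1-CE12 (0.892) and the class I mean (0.848). For Psmb10 the log2 signal was 8.83 in that array and 8.39 to 8.41 in the other persimmon peel arrays. In control array 1, low values were found for Psmb9 (0.875), RT1-S3 sets 1371123_x_at (0.893) and 1388212_a_at (0.968), B2m set 1371440_at (0.836) and RT1-N2 (0.923), and a high one for RT1-Da (0.886). For Psmb9 the log2 signal was 8.43 in that array and 8.91 to 8.98 in the other control arrays.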

How the results depend on the processing

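The count of 1 member higher went to 0 without the intensity trend, with the replicate block, with the beta-actin ratio as a covariate and without persimmon peel arrays 1 and 3, and lay between 0 and 1 with single arrays left out. At an unadjusted p it was 4, and 1 member was lower. With the covariate the class I median was -0.04 and the class I partner median -0.15, against -0.11 over all tested sets. The class II median kept its sign in every setting (0.15 to 0.30). For Ifi30 the replicate block gave 0.38 (adjusted p = 0.0535). The replicate numbers did not pair the arrays: deviations from the diet means correlated at 0.0168, -0.0846, 0.0539 and 0.0433 for numbers 1 to 4, and 1 of 4 persimmon peel arrays matched its own number best. Uncalled differences between sets of a gene changed sign: Erap1 to 0.32 and RT1-S3 to -0.02, 0.07 and 0.04 with the covariate, and RT1-Ba to -0.06, -0.02 and -0.03 without persimmon peel array 2, control array 1 or control array 2 (with single arrays left out, -0.06 to 0.21). The causes were not tested. Signals near background limit Ciita, RT1-Bb and the dim sets.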

Other observations

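There were 6 probe sets with several RT1 symbols, which were left out because their gene is not settled, and 3 of them were in the tested range. The set 1371267_at (RT1-A, RT1-CE16 and RT1-A1) had signals of 52.8, 51.5, 50.1 and 30.7 on the persimmon peel diet and 25.9, 39.1, 36.1 and 18.3 on the control diet (limma, log2 fold change 0.66, SE 0.27, adjusted p = 0.176). The set 1371078_at (RT1-A and 4 RT1-CE genes) had 174, 231, 172 and 182 on the persimmon peel diet and 208, 262, 275 and 214 on the control diet (log2 fold change -0.34, SE 0.13, adjusted p = 0.165). These class I sets had opposite signs, and neither passed. The set 1370428_x_at (RT1-A3 and RT1-A2) was at -0.39 (SE 0.31, adjusted p = 0.518).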
